A study of Danio rerio with 9 samples.

Results

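grhl3, GATA3 and TP63 encode transcription factors of surface epithelia, and their RNA was followed in zebrafish (Danio rerio) embryos from the 128-cell to the 512-cell stage. The 3 genes were chosen by name, as grhl3 (ENSDARG00000078552), GATA3 (ENSDARG00000016526) and TP63 (ENSDARG00000044356), and are 3 of the 8969 genes measured in each library. All embryos were wild-type fish of the AB strain. Labelled RNA was sampled at the 128-cell, 256-cell and 512-cell stages, with 2 technical replicate libraries per stage, from embryos given 4-thio-UTP (50 mM, in 1 nl) as 1-cell embryos. This uridine analogue is built into RNA as it is made, and the RNA that carries it is biotinylated and pulled down on streptavidin beads. Unlabelled embryos of the same 3 stages gave 1 library each, purified in the same way, and show what the beads carry over without the label. The labels give the injection protocol for the unlabelled samples too and do not say whether these were mock-injected. How many embryos went into a sample is not stated. A p-value between stages therefore reflects technical variation alone, because the paired libraries of a stage are technical replicates.

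The blastula of the fish is covered by the enveloping layer, an epithelium 1 cell thick, which later becomes the periderm, the outer layer of the embryonic skin. It is the first tissue to differentiate in the fish embryo and seals it from the water. Grainyhead-like factors act in such barrier epithelia, where they switch on genes of cell junctions and of the cornified surface. Gata3 is a zinc-finger factor, known in mammals for T helper cells and for the skin and hair follicle. Tp63 maintains the basal epidermal cells that lie under the periderm. The study asked which genes are transcribed first by the embryo itself, before the major activation of its genome.

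In labelled RNA, grhl3 and GATA3 were at or under 1.18 FPKM at the 128-cell stage and within the top 309 genes by the 512-cell stage. TP63 lay between 0.568 and 2.87 FPKM in every library, with or without the label. FPKM, a fragment count divided by transcript length and by the size of the library, is the deposited unit throughout, and it allows levels of different genes to be compared per length.

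In labelled RNA grhl3 had 0.744 and 1.18 FPKM at the 128-cell stage, 37.0 and 11.6 FPKM at 256-cell, and 237 and 81.7 FPKM at 512-cell, with replicate 1 given before replicate 2. Unlabelled embryos had 0.208, 0.107 and 1.01 FPKM of grhl3 at the same stages. Both labelled libraries of each later stage lay above both of the stage before. The same held for 10.5% of tested genes from 128-cell to 256-cell, and for 7.81% from 256-cell to 512-cell. The 3 labelled ranges thus did not overlap, and how many genes share this order was not counted. The unlabelled 512-cell value fell inside the labelled 128-cell range. Ranked by FPKM from the top of all 8969 genes, grhl3 stood at 7246 and 5401 in labelled 128-cell libraries, 440 and 547 at 256-cell and 160 and 167 at 512-cell. Ranks do not depend on how the libraries were scaled, and the replicates gave almost the same rank at 512-cell although their FPKM differed.

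GATA3 had 0.710 and 0.502 FPKM in labelled RNA at the 128-cell stage, 30.5 and 13.6 FPKM at 256-cell, and 63.1 and 30.0 FPKM at 512-cell. In unlabelled embryos it was listed at 0 at 128-cell and had 0.631 FPKM at 256-cell and 1.83 FPKM at 512-cell. Labelled 256-cell and 512-cell libraries overlapped slightly, 256-cell replicate 1 being just above 512-cell replicate 2, whereas within each replicate the 512-cell value was higher. Its rank was 7299 and 7189 in labelled 128-cell libraries, 529 and 459 at 256-cell and 309 and 256 at 512-cell. The step up the ranking between 128-cell and 256-cell was thus far larger than the one that followed, as it was for grhl3. Ranks near the top leave little room for a further step.

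For TP63, labelled RNA had 2.87 and 0.568 FPKM at 128-cell, 2.14 and 1.74 FPKM at 256-cell, and 1.33 and 0.585 FPKM at 512-cell. Unlabelled embryos had 2.24, 1.35 and 0.993 FPKM. Labelled 128-cell libraries overlapped those of both later stages, the widest gap between replicates being at 128-cell. Both 512-cell libraries lay below both 256-cell ones, as for 6.31% of tested genes. The unlabelled value lay inside the labelled range at 128-cell and 512-cell. At 256-cell it lay below both labelled libraries. The unlabelled series ran downward with stage, as did the median FPKM of all genes in those libraries, at 2.52, 1.35 and 0.836. TP63 ranked between 3998 and 7001 in the 9 libraries.

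**Figure D1:**
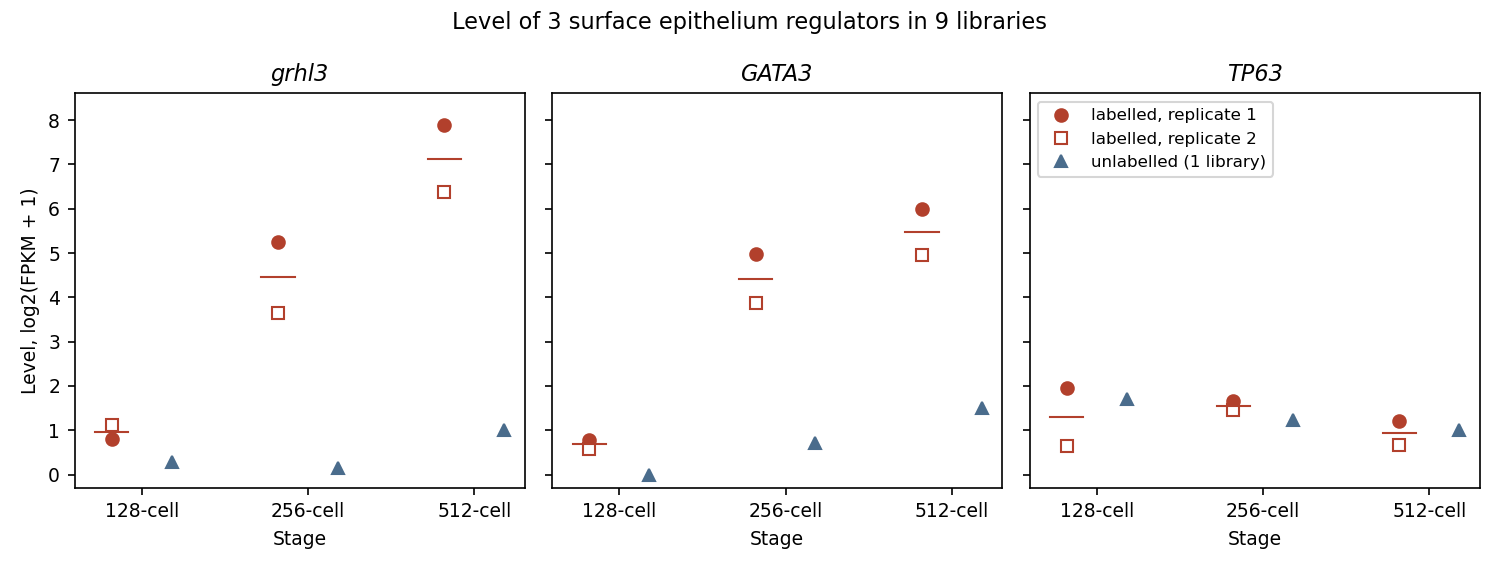
Level of grhl3, GATA3 and TP63, as log2(FPKM + 1), in each of the 9 libraries by stage; circles and squares are the 2 labelled technical replicates, short lines their mean, triangles the single unlabelled library. In labelled RNA grhl3 reaches 237 and 81.7 FPKM and GATA3 63.1 and 30.0 FPKM at 512-cell, while TP63 stays at or under 2.87 FPKM in every library.

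From the 128-cell to the 512-cell stage, grhl3 and GATA3 rose in labelled RNA, and TP63 did not pass the test. The question is whether the embryo itself had made more of these RNAs by the later stage. Log2 changes are of FPKM + 1, with the median change over all genes tested, here -0.11, subtracted; limma's p tests the change before that subtraction. The pseudocount understates the change of genes that are near 0 at one stage. grhl3 rose by 6.27 ± 0.87 (SE, n = 2 libraries per stage; limma, adjusted p = 0.00376), the 5th largest fitted change of 7438 genes. GATA3 rose by 4.90 ± 0.74 (adjusted p = 0.00453), the 72nd largest. TP63 had -0.25 ± 0.50 (adjusted p = 1.00), at position 6004. By the same test 4.96% of genes were higher. Both libraries of the later stage lay above both of the earlier one for grhl3 and GATA3, as for 12.4% of all tested genes. Neither gene met the filter on low values by its 128-cell libraries, with 0.744 and 1.18 FPKM for grhl3 and 0.710 and 0.502 FPKM for GATA3. Both entered the test only with the help of later libraries. With all libraries scaled to 1 total of FPKM outside the mitochondrial genome, neither rise passed (adjusted p = 0.0824 for grhl3 and 0.149 for GATA3).

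Within a replicate, grhl3 FPKM was 318-fold higher at 512-cell than at 128-cell in replicate 1 and 69.3-fold higher in replicate 2. For GATA3 these ratios were 88.9 and 59.8. The levels at 128-cell were under 1.2 FPKM for both genes, so the ratios rest on values near the bottom of the scale. For TP63 the ratio was 0.462 in replicate 1 and 1.03 in replicate 2.

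The climb was split differently between the stages in grhl3 and GATA3. At the 256-cell stage, grhl3 had 15.6% and 14.2% of its 512-cell level in the labelled replicates. GATA3 had already 48.3% and 45.2%. From 256-cell to 512-cell, grhl3 FPKM was thus 6.40-fold and 7.04-fold higher within a replicate, and GATA3 2.07-fold and 2.21-fold higher. The ratio of grhl3 to GATA3 inside a library, which no scaling of libraries can move, was 3.75 and 2.72 at 512-cell, against 1.21 and 0.857 at 256-cell. These ranges did not overlap; with 2 libraries per stage no exact test can reach the threshold, and the difference between the genes was not tested. At 128-cell the ratio was 1.05 and 2.35, from levels too low to order the genes. Of the 369 genes higher at 512-cell than at 128-cell, the median gene had 25.1% of its 512-cell level at 256-cell, as the mean of both replicates, and the quartiles were 16.5% and 33.5%. On the same measure grhl3 had 14.9%, with 74 of the genes below it, and GATA3 46.8%, with 49 genes above it. Of the 369 genes, 30 have values identical to another gene ID, 21 of them between 60% and 65%. The count above GATA3 therefore includes repeats. The enveloping layer factor gene klf17 had 43.3%, near GATA3, with 48.8% and 37.8% in the replicates. Other genes of the lists below that are among the 369 lay lower. These were ID1 at 9.15%, actc1a at 15.6%, GATA2 at 20.8%, TFAP2C at 23.0% and mxtx2 at 36.3%.

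**Figure D2:**
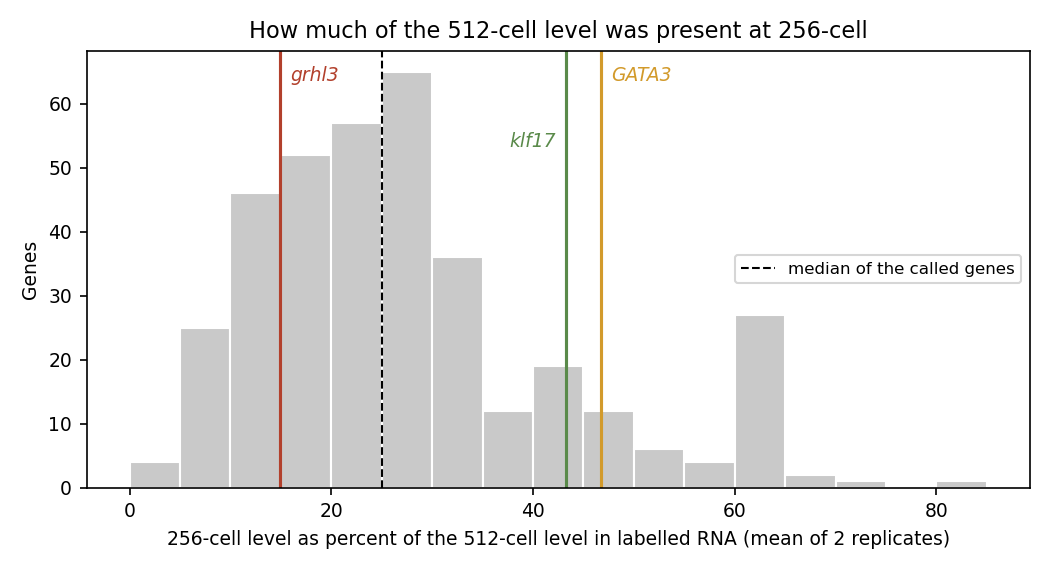
Labelled level at 256-cell as percent of the level at 512-cell (mean of the 2 replicates) for the 369 genes higher at 512-cell than at 128-cell; bars count genes in steps of 5 percentage points, coloured lines mark grhl3 at 14.9%, klf17 at 43.3% and GATA3 at 46.8%, and the dashed line the median of 25.1%. Of the 27 genes between 60% and 65%, 21 have values identical to another gene ID in all 9 libraries, so the 27 genes hold only 15 distinct sets of values.

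The 2 steps taken singly did not pass in the fit without a replicate block. Between 256-cell and 128-cell, 0% of 7438 genes passed, with 256 at an unadjusted p under 0.05. GATA3 had a log2 change of 3.71 ± 0.74 (limma, adjusted p = 0.148, n = 2 per stage) and grhl3 3.46 ± 0.87 (adjusted p = 0.247). With the replicate number as a block, adjusted p was 4.17e-05 for GATA3 and 0.000671 for grhl3, where 3.15% of all genes were higher. For both genes both 256-cell libraries lay above both 128-cell libraries, as for 10.5% of tested genes. TP63 had 0.22 ± 0.50 (adjusted p = 1.00), and its sign turned without replicate 2 of either stage.

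Between 512-cell and 256-cell 0% of genes passed as well, with 335 at an unadjusted p under 0.05. grhl3 had 2.78 ± 0.87 (limma, adjusted p = 0.479, and 0.00616 with the replicate block, under which 4.85% of genes were higher), and its libraries of the 2 stages did not overlap, as for 7.81% of tested genes in that direction. GATA3 had 1.15 ± 0.74 (adjusted p = 1.00). No alternative brought GATA3 past the threshold in this step, the lowest adjusted p being 0.0506. TP63 had -0.52 ± 0.50 (adjusted p = 1.00).

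A further table of the authors holds 1 value per stage over the labelled libraries. In the authors' deposited table grhl3 has 0.569, 26.1 and 237 FPKM at 128-cell, 256-cell and 512-cell, and GATA3 0.336, 24.3 and 71.3 FPKM. The authors' deposited table gives TP63 1.19, 1.99 and 1.43 FPKM. GATA3 and TP63 at 512-cell, and grhl3 and GATA3 at 128-cell, lie there outside the range of the 2 libraries, and grhl3 at 512-cell equals the higher library to within rounding. GATA3 at 256-cell is 34.1% of its 512-cell value in the authors' deposited table, and grhl3 is further below its own.

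Labelled RNA held more grhl3 and GATA3 than unlabelled RNA at the 512-cell stage, and TP63 did not pass at any stage. The comparison sets RNA recovered with the label against RNA that the beads carry over without it. Whether a labelled excess is new RNA alone was not tested. Neither grhl3 nor GATA3 met the filter on low values by its unlabelled libraries alone. Both entered every comparison with unlabelled RNA with the help of labelled libraries. Over the 3 stages, 1 of 7 tested germ plasm genes was also higher in labelled RNA, where 11.9% of all genes were. It was DDX4, with 2.01 (limma, adjusted p = 0.000181), in a fit that gave the gene's own spread no weight. DDX4 did not pass at any single stage, and 1 gene of 7 is too few to set apart from that share. An unadjusted p under 0.05 was reached by 5 of the 7, and by 1891 of 7697 tested genes. Among 9 tested junction genes 1 was higher in this fit, cldn7b (1.31, limma, adjusted p = 0.0168). At 512-cell, grhl3 was 234-fold and 80.9-fold higher in the labelled replicates than in the unlabelled library, with a log2 difference of 5.40 ± 0.94 above the median of all genes (limma, adjusted p = 0.00631, n = 2 labelled and 1 unlabelled). GATA3 was 34.5-fold and 16.4-fold higher, with 3.25 ± 0.79 (adjusted p = 0.0216, and 0.694 with 1 nuclear total). Among 7697 tested genes 3.72% were higher by this test, and 66.3% with the replicate block. Labelled libraries both lay above the unlabelled one for 73.4% of genes at this stage, where the median difference of all genes was 0.73, so the lack of overlap alone says little of the 2 genes. TP63 had -0.78 ± 0.63 (adjusted p = 0.966); its labelled replicates were 1.34 and 0.589 times the unlabelled value.

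At 256-cell the labelled replicates held 345 and 108 times the unlabelled FPKM of grhl3, and 48.4 and 21.5 times that of GATA3. Their log2 differences were 3.88 ± 0.94 (limma, adjusted p = 0.0833) and 3.29 ± 0.79 (adjusted p = 0.0729). With the replicate block adjusted p was 0.000157 and 2.29e-05, in a fit that called 45.6% of all genes higher. In the fit without the block 1.13% of genes were higher, and both labelled libraries lay above the unlabelled one for 53.6% of genes, as for grhl3, GATA3 and TP63. The larger ratio of grhl3 at 256-cell than at 512-cell comes with an unlabelled value of 0.107 FPKM. TP63 had -0.11 ± 0.63 (adjusted p = 0.959).

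At 128-cell the labelled replicates had 3.58 and 5.68 times the unlabelled FPKM of grhl3, and GATA3 was listed at 0 without the label. Log2 differences were 0.87 ± 0.94 for grhl3, 0.86 ± 0.79 for GATA3 and -0.21 ± 0.63 for TP63 (limma, adjusted p = 1.00 for each), where 0.078% of genes were higher, and 10.2% with the replicate block. With a pseudocount of 0.1 the differences of grhl3 and GATA3 were 2.03 and 3.08, and without labelled 128-cell replicate 2 that of grhl3 was 0.50; neither gene passed under any setting tried, with adjusted p from 0.177 and 0.0653 upward. Both labelled libraries lay above the unlabelled one for grhl3 and GATA3, as for 17% of genes. All values of grhl3 and GATA3 were under 1.2 FPKM at this stage. Depth is unknown, so whether label-dependent RNA of the 2 genes was present at 128-cell cannot be decided from these values.

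Over the 3 stages together grhl3 was higher in labelled RNA by 3.38 ± 0.41 and GATA3 by 2.47 ± 0.39. Adjusted p was 1.53e-17 and 6.14e-11 (limma with stage as a block, n = 3 stages), where 11.9% of genes were higher. Both errors come from a trend of the spread against the level over all genes. The fit gave the gene's own spread no weight. With the replicate block, in a fit that entered the technical replicates singly, 39.9% of genes were higher. The stage differences of grhl3 were 0.69, 4.30 and 6.12 before the median was taken off, with a gene's own SE of 1.60, and those of GATA3 0.68, 3.71 and 3.98, with 1.06. With each gene's own spread neither passed (adjusted p = 0.543 and 0.537), and the exact sign-flip test gave p = 0.25 for each, the smallest that 3 stages allow. Before the median was taken off, both genes were higher in labelled RNA at 3 of 3 stages. How many of all genes share this was not counted. TP63 had -0.37 ± 0.34 (limma, adjusted p = 0.957). It was higher at 1 of 3 stages before the median was taken off. Relative to the median its differences were -0.21 at 128-cell, -0.11 at 256-cell and -0.78 at 512-cell.

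**Figure D3:**
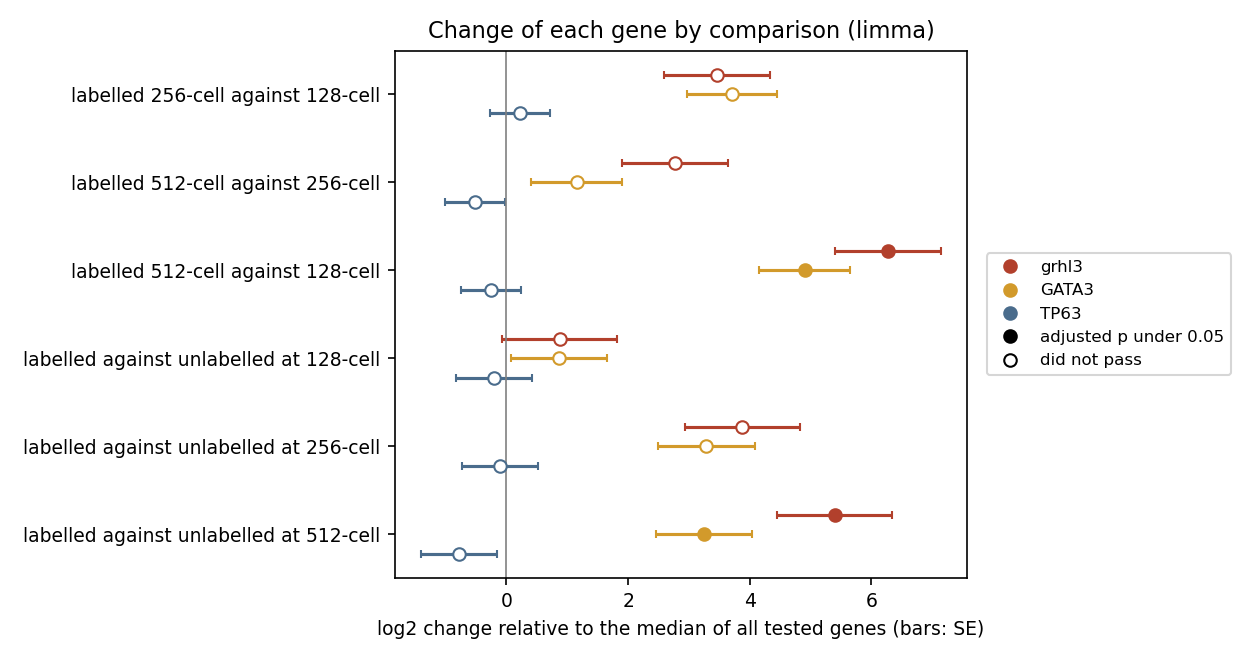
Log2 change of each gene relative to the all-gene median, with SE, in 3 comparisons between stages of labelled RNA and 3 between labelled and unlabelled RNA; filled points passed an adjusted p of 0.05 in limma. grhl3 at 6.27 and GATA3 at 4.90 passed for 512-cell against 128-cell, and TP63, between -0.78 and 0.22, passed in none.

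The single unlabelled libraries also carried more grhl3 and GATA3 at 512-cell than earlier. In the ranking of unlabelled RNA, grhl3 went through positions 8260, 8218 and 4013 with stage, and GATA3 through 8662, 6351 and 2543, while TP63 had 4831, 4463 and 4056. The labelled change between 128-cell and 512-cell exceeded the unlabelled one by 4.49 ± 1.33 for grhl3 (limma, adjusted p = 0.238) and by 2.35 ± 1.12 for GATA3 (adjusted p = 0.447), or by 5.43 and 3.30 before the median of 0.94 was taken off. For GATA3 the excess was 0.29 with a pseudocount of 0.1, its unlabelled 128-cell library being listed at 0. With the replicate block adjusted p was 0.00116 and 0.00151, in a fit that called 37.5% of all genes higher. In the fit without it 0% of genes passed by limma, with 568 at an unadjusted p under 0.05. TP63 had -0.60 ± 0.88 (adjusted p = 0.811).

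Of the Grainyhead-like genes grhl3 alone was measured, out of 4 listed, and grhl1, grhl2a and grhl2b were not analysed here. The GATA family had 3 measured genes. GATA2, a factor of blood progenitors and of ventral ectoderm, was also higher at 512-cell, with 13.4 and 4.04 FPKM, against 0.403 and 0.0366 FPKM at 128-cell in labelled RNA (2.92 ± 0.59, limma, adjusted p = 0.0178). Without labelled 128-cell replicate 2 its adjusted p was 0.0686. At 256-cell GATA2 had 2.64 and 0.887 FPKM. It was under 1 FPKM at 128-cell and met the filter on low values through later libraries alone. By this test 4.96% of all tested genes were higher. The endoderm and heart factor gene GATA5 had at most 1.13 FPKM and was not tested.

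Among enveloping layer and periderm genes 8 of 26 listed were measured and 7 tested, of which 3 rose from 128-cell to 512-cell in labelled RNA: grhl3, GATA3 and klf17, the first pair being the genes chosen here. The share over all tested genes was 4.96%. The list also holds TP63, although Tp63 acts in the basal epidermal cells under the periderm. klf17, a Kruppel-like factor gene of the enveloping layer, rose by 5.51 ± 1.07 (limma, adjusted p = 0.0134, and 0.104 without labelled 128-cell replicate 2). The list's median was 0.02 above that of all tested genes, and 4 of its 7 genes did not pass. These were TP63, epcam, an adhesion gene of epithelia at 0.02 ± 0.80, CHUK, which encodes a kinase of periderm differentiation, at -0.19 ± 0.53, and DSP, which encodes a desmosome protein, at -0.04 ± 0.48. cldne, a claudin gene of the enveloping layer, was listed at 0 in both labelled 128-cell libraries and all 3 unlabelled ones, and had 2.26 and 0.856 FPKM in labelled 512-cell RNA; it was too low to be tested. Because genes near 0 at 128-cell entered the test through their later libraries alone, the tested genes lean towards those that rose.

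Regulators of surface ectoderm and epidermis had 4 of 19 listed genes measured, and 2 of these 4 rose between 128-cell and 512-cell, against 4.96% of all tested genes. The 2 that rose were under 1 FPKM at 128-cell and met the filter on low values through later libraries alone. The list was chosen with earlier results known, so its share beside that of all genes is a description only. ID1, which encodes an inhibitor of helix-loop-helix factors and is a target of BMP signals, rose by 4.79 ± 0.75 (limma, adjusted p = 0.00470), to 69.6 and 23.7 FPKM at 512-cell, against 0.705 and 0.536 FPKM at 128-cell. TFAP2C, an AP-2 factor gene of ectoderm, rose by 2.17 ± 0.51 (adjusted p = 0.0408, 0.113 without labelled 128-cell replicate 1 and 0.0770 without 512-cell replicate 1). In labelled RNA TFAP2C had 0.0162 and 0.153 FPKM at 128-cell, and 4.76 and 2.57 FPKM at 512-cell. TFAP2A had 2.24 ± 0.57 (adjusted p = 0.0586) and ID3 1.72 ± 0.89 (adjusted p = 0.996); with the replicate block, under which 9.76% of all genes were higher and 1.33% lower, they passed at 0.00337 and 0.000592. The median of the 4 genes was 2.21. Of the junction genes of epithelia, 0 of 9 tested passed (limma), with 0 at an unadjusted p under 0.05, and their median was -0.14. The highest was cldn7b at 0.52 ± 0.97 and the lowest cldnd at -0.76 ± 1.06, a claudin gene that passed as lower with the replicate block (adjusted p = 0.0381).

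**Figure D4:**
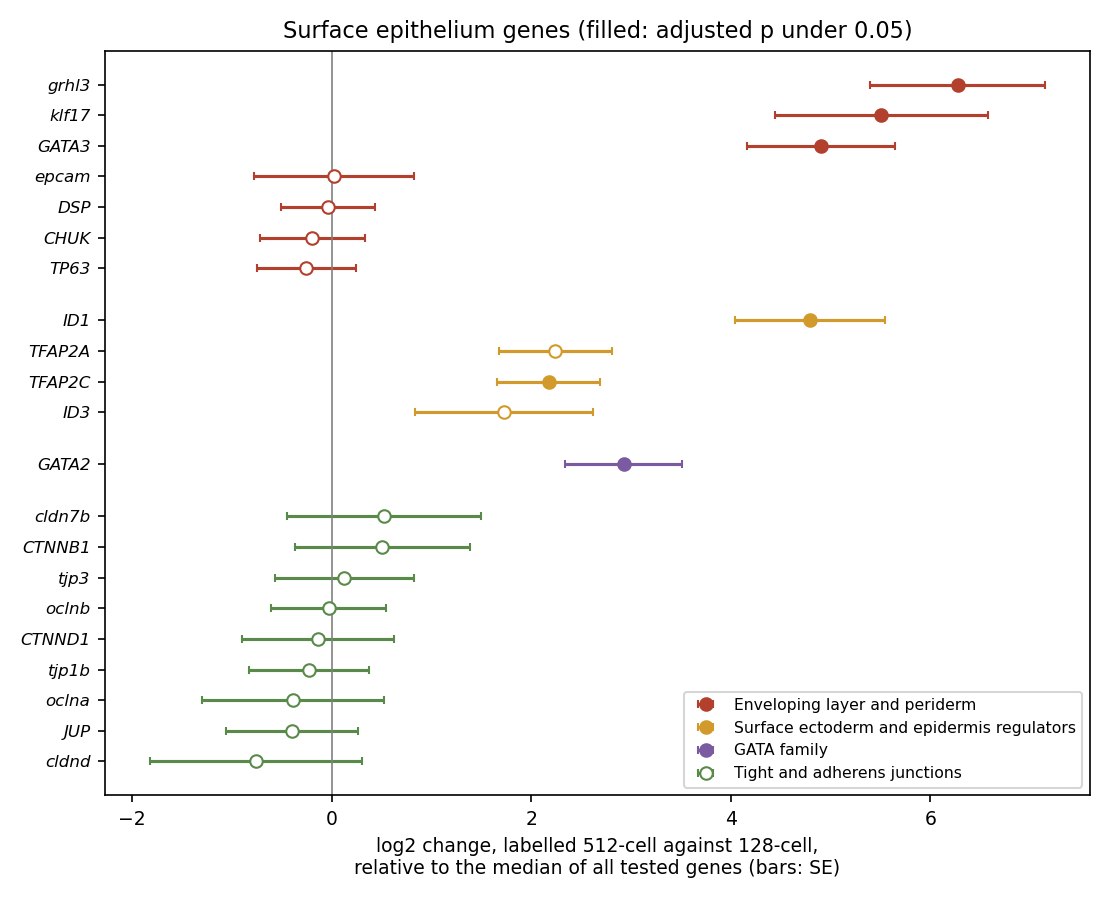
Log2 change in labelled RNA, 512-cell against 128-cell, relative to the all-gene median, with SE, for tested genes of 4 lists; each gene is drawn once, in the first list that holds it, and filled points passed an adjusted p of 0.05 in limma. grhl3, klf17, GATA3, ID1, TFAP2C and GATA2 passed, and none of the 9 junction genes did.

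Genes listed for other cell types were measured in the same whole embryos, in which fewer cells of a type and less RNA per cell cannot be told apart. Their values do not show that such cells were present at these stages. mxtx2, the 1 measured gene of 6 listed for the yolk syncytial layer, had 574 and 84.9 FPKM at 512-cell, against 10.0 and 2.08 FPKM at 128-cell, and rose by 5.36 ± 1.28 (limma, adjusted p = 0.0379). It did not pass without labelled 128-cell replicate 2 (0.184) or 512-cell replicate 1 (0.162). Germ plasm genes summed to between 57.9 and 205 FPKM at 512-cell, against 84.3 to 193 FPKM at 128-cell, and 0 of 7 tested passed (limma), with 0 at an unadjusted p under 0.05. Oocyte mRNAs summed to between 55.4 and 130 FPKM at 512-cell, against 81.5 to 192 FPKM at 128-cell. Of these, 0 of 7 passed (limma), with 1 at an unadjusted p under 0.05. By this test 4.96% of all tested genes were higher, so 0 of 7 does not set either list apart from genes at large. With the replicate block YBX1, which encodes a Y-box RNA-binding protein, passed as higher (1.80, limma, adjusted p = 0.00222). In that fit slbp2, a histone mRNA-binding protein gene, passed as lower (-0.82, limma, adjusted p = 0.0213). So did cldnd, which this list also holds (-0.76, limma, adjusted p = 0.0381). Of all tested genes, 9.76% were higher and 1.33% lower in the blocked fit. actc1a, a muscle actin gene and the 1 of 9 listed differentiated tissue genes that was measured, had 3.35 and 1.09 FPKM at 512-cell (adjusted p = 0.0318) and was listed at 0 in both 128-cell libraries with label. It entered the test through its 512-cell libraries alone, and did not pass without labelled 128-cell replicate 1 (0.104) or replicate 2 (0.0641). The part of other cell types in the values of grhl3 and GATA3 was not tested.

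Across the 9 libraries, of which the labelled ones come in technical pairs, log2(FPKM + 1) of grhl3 and GATA3 had a Pearson correlation of 0.976. The correlation with TP63 was -0.20 for grhl3 and -0.14 for GATA3. The 5 named genes most like grhl3 were cst3 (0.996), apoeb (0.995), inka1a (0.995), slc25a55a (0.994) and admp (0.994), out of 5730 genes with a proper symbol (clone names left out). For GATA3 they were blf (0.989), znf1127 (0.988), drll.3 (0.985), slc25a55a (0.984) and foxd5 (0.984). A correlation above 0.95 was reached by 92 genes with grhl3 and by 43 with GATA3; these points share the same libraries. TP63 was most like ARVCF (0.948), ZBTB3 (0.938), cflara (0.935), TMEM177 (0.924) and PARD3 (0.913), and the median gene had 0.539 with it, against 0.217 with grhl3 and 0.160 with GATA3. ARVCF, the closest, had 4.54 and 1.60 FPKM in labelled 128-cell libraries and 3.41 FPKM in the unlabelled one, higher in replicate 1 than in replicate 2, as TP63 was. Genes at large had this order too, FPKM + 1 being a median of 1.40 times higher in replicate 1 at 128-cell.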

How the data were processed

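The authors' deposited values are FPKM per gene, for which the submitters' processing notes name the genome build Zv9, Cufflinks 2.0.2, TopHat 1.3.3 and CASAVA 1.7. Libraries had 15 PCR cycles, per the labels' protocols. The annotation, filters, treatment of reads with several matches, strand and scaling between libraries are not given in the sources used here. Depth is therefore unknown, and no counting interval is given. Gene names came from a table of IDs and symbols. Transcript rows carry no gene ID and were not used; no sequence or genome position was used.

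The test took genes that reached 1 FPKM in 2 or more of the libraries fitted, and used limma 3.58.1 in R 4.3.3 on log2(FPKM + 1), two-sided, with a mean-variance trend and Benjamini-Hochberg adjustment over all tested genes at 0.05; the code was tested on simulated data. Stage comparisons used the labelled libraries, those with unlabelled RNA all 9, where each lone unlabelled library is given the spread of the labelled replicates. Over the 3 stages, technical replicates were averaged and stage was a block. With the replicate block they were entered singly there. Replicate numbers were checked for pairing by the correlation of deviations from stage means over 7438 genes, which was 0.739, 0.762 and 0.660 between stages as deposited, and 0.735, 0.740 and 0.663 with size factors; since each is over 0.1, blocked values stand beside results they change. What a number shares is not stated. The labels give the unlabelled libraries no number, and the block counted them with replicate 1. Blocked comparisons with unlabelled RNA rest on that assignment.

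The 3 genes and all lists were chosen with earlier results of these data known. Other genes were named where they belong to the same families, where they passed or had the smallest adjusted p in a list, or by the 5 highest correlations. One further gene is not reported here. FPKM + 1 was higher in replicate 1 than in replicate 2, by a median of 1.40 times (128-cell) to 1.72 times (256-cell and 512-cell). Labelled libraries had 12.8% to 42.7% of the FPKM sum in 13 mitochondrial genes and unlabelled ones 0.367% to 0.456%. Alternatives were a pseudocount of 0.1, no filter, median-of-ratios size factors, 1 nuclear total, a replicate block and leaving out each labelled library.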

Additional observations from a re-analysis of the deposited data

How the results depend on the processing

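All values here are log2 changes relative to the all-gene median, in FPKM + 1. For 512-cell against 128-cell, grhl3 and GATA3 passed under 10 of 11 other settings. With 1 nuclear total, which moved the all-gene median to -0.81, they did not pass at 6.20 and 4.90, and the lists fell to 0 enveloping layer and 0 surface ectoderm genes; the number of genes higher fell from 369 to 1. GATA3 did not pass at 512-cell against unlabelled RNA with 1 nuclear total either (2.92).

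Some differences passed under an alternative only. With the replicate block these were, for grhl3 and GATA3, 3.46 and 3.71 (256-cell against 128-cell), 4.02 and 3.35 (256-cell, labelled against unlabelled) and 4.49 and 2.35 (labelled minus unlabelled change), with 2.78 for grhl3 at 512-cell against 256-cell and 4 surface ectoderm genes higher. With size factors they were 3.40 and 3.69, 4.00 and 3.30, 4.71 and 2.52, and 2.82. With a pseudocount of 0.1 GATA3 passed for 256-cell against 128-cell (4.84), and grhl3 and GATA3 at 256-cell against unlabelled RNA (6.04 and 4.19). Over the 3 stages, grhl3 and GATA3 did not pass with size factors (3.33 and 2.30) or with each gene's own spread (3.38 and 2.47), an alternative chosen after seeing the data, like leaving out a stage. The cause of these differences was not tested.

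Leaving out 1 labelled library at a time gave, for 256-cell against 128-cell, 3.02 to 3.88 for grhl3 and 3.52 to 3.87 for GATA3. At 256-cell against unlabelled RNA it gave 3.45 to 4.30 and 3.10 to 3.47, and for the labelled minus unlabelled change of grhl3 4.06 to 4.89; each passed without some libraries. TP63, which passed nowhere, turned sign, with ranges of -0.67 to 0.10 (512-cell against 128-cell), -0.17 to 0.60 (256-cell against 128-cell), -0.61 to 0.23 (128-cell, labelled against unlabelled) and -0.39 to 0.16 (256-cell). Over the 3 stages, grhl3 did not pass without labelled 128-cell replicate 2 (3.24, adjusted p = 0.0553). Leaving out a stage gave 2.40 to 4.61 for grhl3 and 2.04 to 3.24 for GATA3, which did not pass without the 256-cell stage. Surface ectoderm genes higher were 1 without replicate 1 of labelled 128-cell or 512-cell.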
